A study of Mus musculus with 34 samples.

Results

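Neural progenitor cells (NPCs) with a deletion of the 7qF3 region on one chromosome and a duplication of it on the other were compared with control NPCs by total RNA sequencing. The members were 8 libraries chosen by their column titles, 3 of duplication-deletion NPCs (replicates 2, 4 and 5) and 5 of control NPCs (replicates 1 to 5), out of 28 RNA libraries in all. The duplication-deletion NPCs carry the genotype label 129Sv df/dp and the control NPCs the label 129Sv +/+. Both were derived from mouse embryonic stem cell (ESC) lines made by chromosome engineering, both have C57BL/6N as the background strain label, and both were harvested at day 5 of a differentiation towards ventral midbrain that passed through epiblast stem cells. For the duplication-deletion NPCs a further description label names the heterozygous deletion alone, while title and genotype name both changes. The labels do not say how many lines or clones stand behind a genotype, or whether replicates came from separate differentiations, so the p-values measure the spread between these libraries, which may be technical. Deletion NPCs of the same series (3 libraries, heterozygous for the deletion) serve below as a second reference.

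The mouse 7qF3 interval is the counterpart of human 16p11.2, where recurrent deletions and duplications are linked to autism spectrum disorder. In df/dp cells the duplicated chromosome balances the deleted one, so that the interval is present in as many copies as in control cells, all of them on a single chromosome. The comparison therefore asks what differs in progenitors that have the rearranged chromosomes without a net change in copy number. NPCs at this stage are dividing neuroepithelial cells of the ventral midbrain floor plate, the source of dopaminergic neurons. The clustered protocadherins, which the series title names, are cell surface adhesion molecules encoded in a tandem array, from which each neuron expresses its own combination. Imprinted genes, which hold much of what follows, are expressed from one parental allele, chosen by DNA methylation set in the germ line.

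Both genotypes expressed markers of the labelled cell type, though not all at the control level. The summed level of 16 neural progenitor genes was 2502 to 3359 CPM (counts per gene scaled to library size) in duplication-deletion libraries and 2559 to 3164 CPM in control libraries. That of 19 floor plate genes was 1216, 2622 and 468.5 CPM in duplication-deletion libraries 2, 4 and 5, against 767.7 to 2737 CPM in control libraries. Duplication-deletion replicate 5 was thus below every control in the floor plate sum. Shh, the ventralising signal, had 112, 148 and 29.5 CPM in duplication-deletion libraries, against 50.6 to 235 CPM in control libraries, and Lmx1a, which specifies dopaminergic progenitors, had 38.2, 201 and 29.8 CPM against 23.9 to 173 CPM. Pou5f1, the pluripotency factor, was at most 0.428 CPM in duplication-deletion and 0.213 CPM in control libraries. Total counts were 72042936, 48744571 and 19311982 in the duplication-deletion libraries and 23561794 to 78814037 in the control libraries, with replicate 5 the shallowest of both groups. Duplication-deletion replicate 5 stood apart from the other two. It had the lowest levels of Y-linked genes, the lowest levels of the Snrpn domain on chromosome 7 and the largest shifts on chromosome 3, all described below, and its summed level of mesoderm, endoderm and stromal markers was 5760 CPM, against 505.9 and 287.0 CPM in replicates 2 and 4 and 272.9 to 2276 CPM in control libraries. Most of that sum was Acta2, smooth muscle actin, at 4070 CPM, and Tagln, at 1541 CPM, whereas Sox17, a definitive endoderm factor, had 0.476 CPM and Afp none. Where a group's count or median moved clearly without this library, the value without it is given too; over all genes there were then 303 higher and 297 lower at an unadjusted p below 0.05, of 16782.

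In edgeR's quasi-likelihood test with Benjamini-Hochberg adjustment over 16783 genes, 2 genes passed at an adjusted p below 0.05 (0.0119% of those tested). Zim1 rose (0.00596% of genes did) and Airn fell (likewise 0.00596%), and both are imprinted. At an unadjusted p below 0.05 there were 447 genes (2.66%), with 282 higher (1.68%) and 165 lower (0.983%) in duplication-deletion NPCs. The values of the 3 duplication-deletion libraries lay wholly above those of the 5 controls for 257 genes (1.53%) and wholly below for 140 genes (0.834%). DESeq2 on the same counts called 49 genes (0.293%), 29 higher and 20 lower, limma-voom called Zim1 alone, and the authors' deposited table lists 54 genes at an adjusted p below 0.05 (0.372%), 29 higher and 25 lower. Of these 54, the edgeR test covered 50, all with the same sign. Gene groups below are therefore described by their counts beside these shares and, where a gene did not pass the edgeR test, by its values.

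The promoter windows of 4 imprinted genes that carry the results are shown because imprinted promoters are marked by methylation of CG pairs. Each runs from 250 bases before to 50 bases after the RefSeq gene start, on the strand of the gene, in build GRCm38.p6, with CG pairs in capitals. They are Zim1 at chr7:6696383-6696682 on the minus strand, Airn at chr17:12741061-12741360 on the plus strand, Plagl1 at chr10:13090582-13090881 on the plus strand and Mkrn3 at chr7:62420104-62420403 on the minus strand.
Zim1: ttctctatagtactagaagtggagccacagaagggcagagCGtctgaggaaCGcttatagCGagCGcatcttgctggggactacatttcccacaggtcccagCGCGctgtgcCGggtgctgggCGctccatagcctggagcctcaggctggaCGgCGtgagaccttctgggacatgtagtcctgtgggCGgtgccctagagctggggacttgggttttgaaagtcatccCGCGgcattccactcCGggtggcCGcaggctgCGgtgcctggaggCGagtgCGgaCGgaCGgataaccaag
Airn: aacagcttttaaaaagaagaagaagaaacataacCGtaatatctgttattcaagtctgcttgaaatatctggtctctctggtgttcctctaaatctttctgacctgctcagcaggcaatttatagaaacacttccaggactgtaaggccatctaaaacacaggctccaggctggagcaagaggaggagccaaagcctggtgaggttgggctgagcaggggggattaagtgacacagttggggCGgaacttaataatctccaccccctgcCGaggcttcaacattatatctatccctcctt
Plagl1: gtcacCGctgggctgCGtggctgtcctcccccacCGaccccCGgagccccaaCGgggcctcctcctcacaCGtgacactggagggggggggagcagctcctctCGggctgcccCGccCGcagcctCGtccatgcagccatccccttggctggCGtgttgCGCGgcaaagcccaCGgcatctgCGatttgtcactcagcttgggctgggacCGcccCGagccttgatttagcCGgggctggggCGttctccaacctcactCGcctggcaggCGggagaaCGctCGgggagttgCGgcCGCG
Mkrn3: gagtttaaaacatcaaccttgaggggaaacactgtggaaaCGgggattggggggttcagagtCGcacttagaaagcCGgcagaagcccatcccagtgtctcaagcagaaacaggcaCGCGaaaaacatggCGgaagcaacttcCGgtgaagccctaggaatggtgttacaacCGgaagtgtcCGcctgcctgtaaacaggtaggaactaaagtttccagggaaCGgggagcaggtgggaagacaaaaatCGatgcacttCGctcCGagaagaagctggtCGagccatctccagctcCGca
The windows hold 20 CG pairs in Zim1, 3 in Airn, 26 in Plagl1 and 15 in Mkrn3. Of 32851 RefSeq promoter windows of the same length, 26.5% have as many as Zim1 or more, 76.7% as many as Airn, 16.9% as many as Plagl1 and 34.6% as many as Mkrn3. DNA methylation was not measured, so these letters describe the windows only.

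Zim1 rose. This gene encodes a zinc finger protein and lies beside Peg3 in an imprinted cluster of proximal chromosome 7, where it is expressed from the maternal allele in the mouse. It had 28.1, 24.5 and 17.4 CPM in duplication-deletion libraries 2, 4 and 5, against 0.476, 1.43, 0.562, 0.322 and 1.19 CPM in control libraries 1 to 5. The lowest duplication-deletion library was far above the highest control, and replicate 5 was in range with the other two. The log2 fold change was 4.89 ± 0.457 (SE; adjusted p = 0.00186). Deletion libraries had 0.860, 0.867 and 0.978 CPM, which is the control level, and the log2 difference of duplication-deletion from deletion was 4.69 ± 0.562 (adjusted p = 0.0269). Peg3, the paternally expressed zinc finger gene of the same cluster, had 584, 710 and 719 CPM in duplication-deletion libraries, against 787, 1567, 755, 1367 and 1321 CPM in control libraries. Its groups did not overlap, but its test did not pass (log2 fold change -0.79 ± 0.294, adjusted p = 1.00). Usp29, a further gene of that cluster, had 68.8, 64.4 and 28.6 CPM in duplication-deletion and 63.2 to 95.5 CPM in control libraries.

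Airn fell. It is a paternally expressed long noncoding RNA that runs antisense to Igf2r and, in the mouse, silences Igf2r on the paternal allele in tissues outside the nervous system. Over the 3 duplication-deletion libraries there was 1 count, in replicate 2 (0.0165, 0 and 0 CPM), against 663 counts over the 5 controls (1.34, 4.71, 0.784, 3.48 and 2.82 CPM). With sequencing effort taken into account this is 0.3% of the control level (95% exact binomial interval 0.00758% to 1.68%, counting error only). The fitted log2 fold change was -8.08 ± 1.08 (SE; adjusted p = 0.0482), and the call was lost in most of the alternatives tried, among them without control replicate 4 (adjusted p = 0.123), where the size of the difference stayed similar (-7.95). Deletion libraries were at 2.67, 6.87 and 2.04 CPM, and against them the difference passed as well (adjusted p = 0.0269). Airn was named although its mean level lay below the limit set for named genes, because it was one of only 2 calls. Igf2r, the receptor gene that it overlaps, had 203 to 300 CPM in duplication-deletion libraries, against 145 to 328 CPM in control libraries, with no separation. Whether reads were assigned by strand in the counting is not given in the sources used here, so reads of overlapping antisense genes may be shared.

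Among the 33 imprinted genes tested, 1 rose and 1 fell at an adjusted p below 0.05. At an unadjusted p below 0.05 there were 3 higher and 12 lower, against 1.68% and 0.983% of all genes. The groups did not overlap for 2 genes on the higher and 11 on the lower side, against 1.53% and 0.834% of all genes. The median log2 fold change was -0.34, against 0.01 over all genes tested. Without duplication-deletion replicate 5 the counts at that p were 3 higher and 11 lower, with a median of -0.45. DESeq2 called 1 higher and 8 lower, and the authors' deposited table lists 1 higher and 7 lower among these genes.

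**Figure D1:**
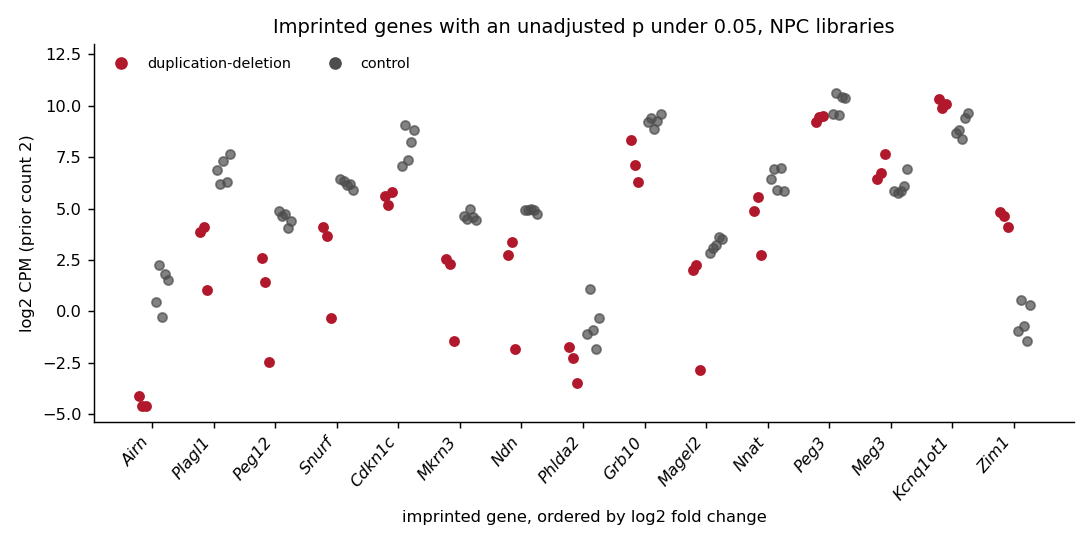
Level of each of the 15 imprinted genes with an unadjusted p below 0.05, as log2 CPM with a prior count of 2, in the 3 duplication-deletion NPC libraries (red, left) and the 5 control NPC libraries (grey, right); 1 point is 1 library. Zim1 stands above all controls, and the lowest red point of Peg12, Snurf, Mkrn3, Ndn and Magel2 is replicate 5.

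Cdkn1c, a maternally expressed inhibitor of cyclin-dependent kinases, had 49.5, 35.4 and 55.4 CPM in duplication-deletion libraries, against 136, 529, 165, 302 and 453 CPM in control libraries. Every duplication-deletion library was below every control (log2 fold change -2.76 ± 0.478, adjusted p = 0.304). Deletion libraries had 182, 180 and 91.1 CPM of Cdkn1c, the lowest of them below every control. Kcnq1ot1, the noncoding RNA whose transcription silences Cdkn1c on the paternal allele, had 1275, 951 and 1070 CPM in duplication-deletion libraries, against 406, 457, 330, 669 and 798 CPM in control libraries. All 3 were above all 5 controls (1.05 ± 0.291, adjusted p = 0.891). Phlda2, a maternally expressed growth inhibitor of the placenta in the same cluster, was below 0.3 CPM in every duplication-deletion library and between 0.241 and 2.09 CPM in control libraries.

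Plagl1, a paternally expressed zinc finger transcription factor that restrains proliferation, had 14.3, 17.2 and 2.05 CPM in duplication-deletion libraries, against 117, 72.7, 157, 77.2 and 200 CPM in control libraries. The highest duplication-deletion value was well below the lowest control value (-3.47 ± 0.658, adjusted p = 0.392). Grb10, an adaptor that dampens insulin signalling, had 324, 140 and 77.1 CPM in duplication-deletion libraries and 465 to 775 CPM in control libraries. Nnat, a paternally expressed membrane proteolipid of neural tissue, had 29.9, 47.6 and 6.57 CPM, against 57.0 to 125 CPM. Both sets were separate from the controls, and neither gene passed. Deletion libraries had 231, 319 and 577 CPM of Grb10, so that they lay partly below the controls as well. For Plagl1 and Nnat no deletion library was below the lowest control. Igf2, the fetal growth factor, with 672, 679 and 1128 CPM in duplication-deletion against 531 to 1518 CPM in control libraries, and Mest, with 1073 to 1228 CPM against 941 to 1534 CPM, had overlapping groups. Gnas, which encodes the stimulatory G protein subunit, did so as well, with 421 to 548 CPM in duplication-deletion and 442 to 516 CPM in control libraries.

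The genes of the Snrpn domain, the mouse counterpart of the Prader-Willi region, were low together; their group of 7 was assembled after its values were seen and is given without a test. Their summed level was 63.6, 48.7 and 1.95 CPM in duplication-deletion libraries 2, 4 and 5, 254.3 to 398.6 CPM in deletion libraries and 190.7 to 261.3 CPM in control libraries. Replicates 2 and 4 were at similar levels and replicate 5 was close to none. Mkrn3, a ring finger protein that restrains the onset of puberty, had 5.73, 4.84 and 0.333 CPM in duplication-deletion libraries, against 24.7, 22.6, 31.0, 24.4 and 21.7 CPM in control libraries. Without replicate 5 it was called (log2 fold change -2.23, adjusted p = 0.0126), and so was Snurf, an upstream reading frame of the Snrpn transcript (-2.29, adjusted p = 0.00895), with 17.3, 12.6 and 0.761 CPM in duplication-deletion and 60.4 to 85.0 CPM in control libraries. Ndn, which encodes the growth suppressor necdin, had 6.67, 10.4 and 0.238 CPM, against 26.5 to 31.5 CPM. Peg12 had 5.98, 2.61 and 0.143 CPM, against 16.6 to 29.1 CPM. Snurf and Snrpn share a transcript, and counts may be split between them; Snrpn itself overlapped between the groups.

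The interval genes themselves did not differ in the test. Of 33 genes listed for the interval, 29 were tested, 0 passed at an adjusted p below 0.05, 0 had an unadjusted p below 0.05 in either direction and 0 had groups that did not overlap; DESeq2 and the authors' deposited table called 0 of them. The interval runs in the deposited table from Giyd1, a synonym of Slx1b, to Sept1 (mm9, chr7:133832441-134361959). In each library the median interval gene stood at 63.7%, 115.6% and 125.5% of the control mean in duplication-deletion replicates 2, 4 and 5, 45.5% to 77.4% in deletion libraries and 79% to 114.4% in control libraries. The mean was 101.6% ± 33.2 in duplication-deletion (SD, n = 3), 58.2% ± 16.9 in deletion (n = 3) and 99.5% ± 13.2 in control NPCs (n = 5). Duplication-deletion replicate 2 was thus within the range of the deletion libraries and the other two were above it. Over the 29 genes the log2 fold changes ran from -1.03 (Tbx6) to 1.62 (Fam57b), with a median of 0.09 and 22 positive. Without duplication-deletion replicate 5 it was 0.03, with 16 positive and 2 lower at an unadjusted p below 0.05, and without replicate 2 it was 0.25.

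**Figure D2:**
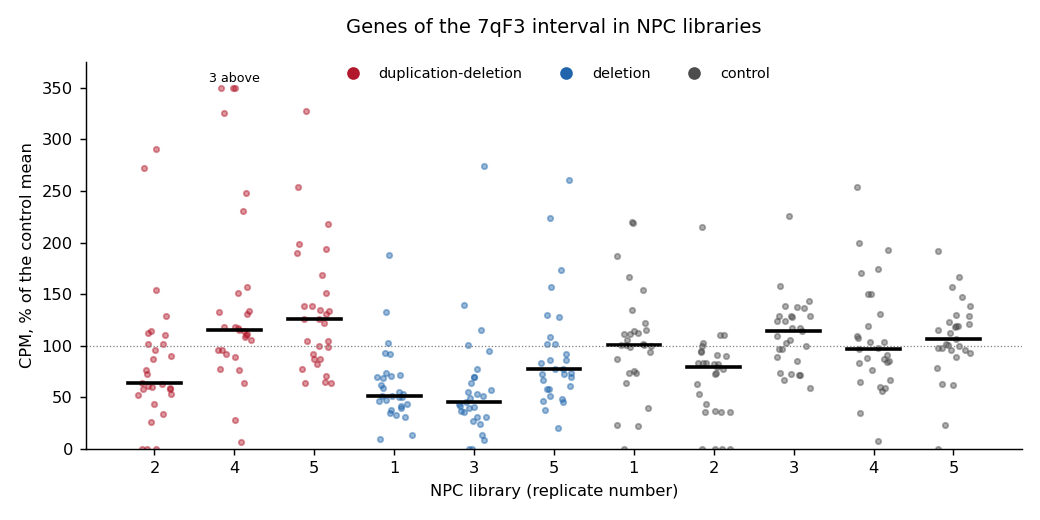
Level of each of the 29 interval genes as a percentage of its mean over the control NPCs, in every NPC library of duplication-deletion (red), deletion (blue) and control (grey); 1 point is 1 gene, black bars are the median gene and points above 350% are drawn at that height. The bars stand at 63.7%, 115.6% and 125.5% in duplication-deletion, 45.5% to 77.4% in deletion and 79% to 114.4% in control libraries.

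Kinases and adaptors of the interval had overlapping groups. Mapk3, the kinase ERK1, had 18.3, 23.1 and 29.1 CPM in duplication-deletion libraries, against 23.5, 23.0, 15.3, 17.9 and 24.9 CPM in control libraries (log2 fold change 0.17 ± 0.314). Taok2, a kinase of dendrite growth, had 49.3, 59.4 and 66.8 CPM, against 49.1 to 61.5 CPM (0.09 ± 0.199). Ppp4c, the catalytic subunit of protein phosphatase 4, had 43.6, 54.9 and 76.7 CPM, against 43.8 to 71.1 CPM (0.03 ± 0.279). Kctd13, which brings substrates to a cullin ubiquitin ligase, had 9.28, 12.7 and 7.33 CPM, against 5.25 to 12.7 CPM (0.22 ± 0.389). In all of these the duplication-deletion libraries spread on both sides of the control mean.

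Aldoa, the glycolytic aldolase, had 104, 156 and 162 CPM in duplication-deletion libraries, against 201, 159, 226, 155 and 138 CPM in control libraries (-0.32 ± 0.253). Maz, a zinc finger transcription factor, had 41.5, 77.0 and 53.9 CPM, against 47.7 to 79.8 CPM (-0.18 ± 0.238). Mvp, the major vault protein, had 1.52, 1.64 and 15.0 CPM, against 1.29, 12.8, 4.26, 2.03 and 9.30 CPM (0.02 ± 0.875). Its spread within each genotype exceeded any difference between them. Coro1a, an actin regulator of leukocytes and neurons, was at 1.83 to 2.76 CPM in duplication-deletion and 0.513 to 2.19 CPM in control libraries (0.60 ± 0.665).

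Set against deletion NPCs, which have fewer copies of the interval, the same 29 genes had a median log2 difference of 0.77, with 26 positive and 12 higher at an unadjusted p below 0.05 (2.6% of all genes), and none lower. Taok2 had a difference of 1.00 and Cdipt, which synthesises phosphatidylinositol, one of 1.41, and no interval gene passed the adjustment. Across all genes 4 passed in that comparison (0.0238%), with Zim1, 2210016F16Rik and 1700001L05Rik higher and Airn lower in duplication-deletion NPCs. 2210016F16Rik had 5.20, 9.39 and 11.7 CPM in duplication-deletion and 0.573, 0.599 and 1.13 CPM in deletion libraries, and control libraries had 3.42 to 6.63 CPM. For 2210016F16Rik every deletion library was thus below every control, while duplication-deletion replicates 4 and 5 were above the controls. With single libraries left out, the log2 fold change over control was 0.52 to 1.03 for 2210016F16Rik and 0.26 to 0.61 for 1700001L05Rik. The count of genes that passed against deletion NPCs was 0 without duplication-deletion replicate 2, without replicate 4 or without deletion replicate 1. It was 8 without duplication-deletion replicate 5.

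Within 1 Mb of the interval on either side 66 genes were tested, and 0 passed; 1 was higher and 1 lower at an unadjusted p below 0.05, and the median log2 fold change was -0.01 (-0.06 without replicate 5, with the same counts). One gene was picked after its values were seen. Zfp764, a zinc finger gene on the distal side (mm9, chr7:134547182-134550336), averaged 6.21 ± 0.803 CPM in duplication-deletion (SD, n = 3), 3.92 ± 0.384 CPM in deletion (n = 3) and 0.750 ± 0.906 CPM in control NPCs (n = 5). In ESCs it had 5.23 to 6.35 CPM in duplication-deletion and 7.13, 7.37 and 3.17 CPM in control libraries. In neurons it had 6.68 and 7.05 CPM in duplication-deletion and 0.0352 to 2.16 CPM in control libraries. DESeq2 called it in NPCs (log2 fold change 3.04, adjusted p = 0.011), and the authors' deposited table lists it at an adjusted p of 0.0475, while in edgeR it had 3.02 ± 0.717 (adjusted p = 0.617). The separation was thus seen in NPCs and neurons and not in ESCs, and the difference between stages did not pass (adjusted p = 1.00 in NPCs minus ESCs).

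Clustered protocadherins of the alpha and beta arrays were higher in duplication-deletion NPCs, without a gene that passed the adjusted edgeR test. Of 21 Pcdhb genes tested, 21 had a positive log2 fold change, 17 were higher at an unadjusted p below 0.05 and 16 had groups that did not overlap, against 1.68% and 1.53% of all genes. The median was 1.91. Of 14 Pcdha genes 13 were positive, 9 were higher at that p and 9 did not overlap, with a median of 3.00. The Pcdha sum was 22.1, 41.0 and 68.4 CPM in duplication-deletion libraries, 18.3 to 22.6 CPM in deletion libraries and 7.75 to 13.1 CPM in control libraries, so that every deletion library was above every control and close to duplication-deletion replicate 2; against deletion NPCs 2 Pcdha genes were higher at that p (median difference 1.53). Without duplication-deletion replicate 5 the Pcdhb counts were 21 positive and 16 at that p (median 2.02), and the Pcdha counts 13 and 7 (median 2.17). DESeq2 called 10 Pcdhb, 1 Pcdha and 1 Pcdhg gene, all higher, and the authors' deposited table lists 11, 3 and 1. The series title names the Pcdh genes, so these samples may be the ones on which the family was picked, and its direction is not independent evidence. All members lie in 1 array, the alpha and the gamma genes each end in shared constant exons, and beta genes are similar to each other in sequence, so that reads could be split between members and the genes are not independent of each other. In bulk libraries fewer cells of a type and less RNA per cell cannot be told apart, here and in every result below.

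The summed Pcdhb level was 159.8, 321.8 and 184.9 CPM in duplication-deletion libraries 2, 4 and 5, against 38.9, 44.5, 88.8, 66.3 and 28.7 CPM in control libraries. The lowest duplication-deletion library stood above the highest control. Deletion libraries had 191.7, 247.4 and 88.8 CPM, and against them 1 Pcdhb gene was higher at an unadjusted p below 0.05 (median difference 0.65). Pcdhb22 had 11.3, 17.3 and 21.2 CPM in duplication-deletion libraries, against 4.22, 5.11, 5.85, 4.13 and 5.13 CPM in control libraries (log2 fold change 1.76 ± 0.276, adjusted p = 0.154). Pcdhb11 had 26.7, 49.3 and 32.2 CPM, against 1.94, 2.76, 8.4, 4.35 and 0.755 CPM (3.30 ± 0.577, adjusted p = 0.304). Pcdhb19 had 21.4, 32.4 and 21.9 CPM, against 6.52 to 10.3 CPM (1.61 ± 0.292), and deletion libraries had 28.7, 34.1 and 13.7 CPM. In all of these genes every duplication-deletion library was above every control, and for Pcdhb22 and Pcdhb19 so was every deletion library. With the replicate number as a block Pcdhb16 was called (adjusted p = 0.0472), and with a term for replicate 5 Pcdhb19 was called (adjusted p = 0.0401).

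**Figure D3:**
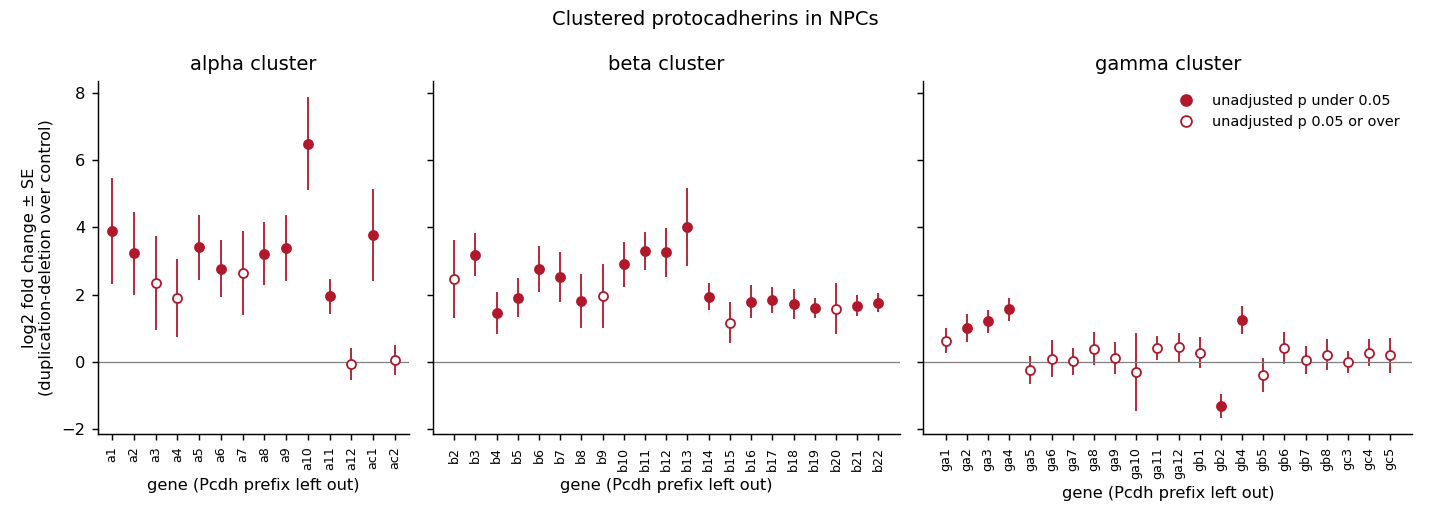
Log2 fold change of each tested gene of the protocadherin alpha (14 genes), beta (21) and gamma (22) clusters in duplication-deletion over control NPCs, with bars of 1 SE; filled points have an unadjusted p below 0.05. All 21 beta points lie above 0, from 1.17 to 4.01, and most gamma points lie near 0, with a12 and ac2 as the low points of the alpha cluster.

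Within the alpha array the log2 fold changes ran from -0.06 to 6.49. Pcdha10 had 1.25, 1.85 and 7.42 CPM in duplication-deletion libraries, against 0, 0, 0.119, 0 and 0.0795 CPM in control libraries (6.49 ± 1.39, adjusted p = 0.505). Pcdha11 had 3.09, 2.62 and 5.09 CPM, against 0.477 to 1.33 CPM (1.95 ± 0.519). Of the C-type isoforms, Pcdhac1 had a log2 fold change of 3.77 ± 1.37 and Pcdhac2 one of 0.06 ± 0.459, and Pcdha12 had one of -0.06 ± 0.478. The gamma array was mixed against control, with a median of 0.24. Of its 22 genes 4 were higher and 1 lower at an unadjusted p below 0.05, against 1.68% and 0.983% of all genes. Against deletion NPCs the median difference was 1.24, with 12 of 22 genes higher at that p (2.6% of all genes) and 0 lower. Pcdhga4 had 12.7, 30.4 and 17.1 CPM in duplication-deletion libraries, against 5.08 to 8.71 CPM in control libraries (1.56 ± 0.339). Pcdhgb2 went the other way, with 8.58, 20.2 and 15.3 CPM, against 24.1 to 61.0 CPM (-1.31 ± 0.353), and deletion libraries had 2.82 to 4.21 CPM. Among 11 protocadherins outside the arrays 1, Pcdh9, was higher at that p, with 46, 65.7 and 32.7 CPM against 16.1 to 34.8 CPM; without replicate 5 there were 4. The gamma counts at that p were 4 and 1 without replicate 5 as well.

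Genes of CTCF and cohesin, which fold the protocadherin arrays and set the choice of promoter, and of Smchd1, which represses clustered protocadherins and imprinted genes, had none of 15 members past an unadjusted p of 0.05, and a median log2 fold change of -0.03, or 0.09 without replicate 5. Ctcf had 97.7, 91.9 and 66.5 CPM in duplication-deletion libraries, against 92.5 to 120 CPM in control libraries (-0.26 ± 0.195). Smchd1 had 256, 148 and 166 CPM, against 175 to 247 CPM (-0.18 ± 0.218). Both sets overlapped.

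Along the genome, chromosome 3 stood apart. In 339 windows of 5 Mb with at least 10 genes, the median log2 difference from the control mean was above every control in all 3 duplication-deletion libraries in 8 of 20 windows of chromosome 3 and below every control in 3, against 0 and 9 of the other 319. The mean over the 3 libraries was beyond 0.4 in either direction in 5 windows of chromosome 3 and in 1 other, which lies on chromosome 7 and holds the Snrpn domain (-1.68, -1.53 and -6.28 in replicates 2, 4 and 5). Of 778 genes tested on chromosome 3, 89 had an unadjusted p below 0.05 (11.4%, against 2.66% of all genes). With chromosomes 3, 7 and Y left out, 320 of 14808 genes did (2.16%). DNA copy number was not measured.

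**Figure D4:**
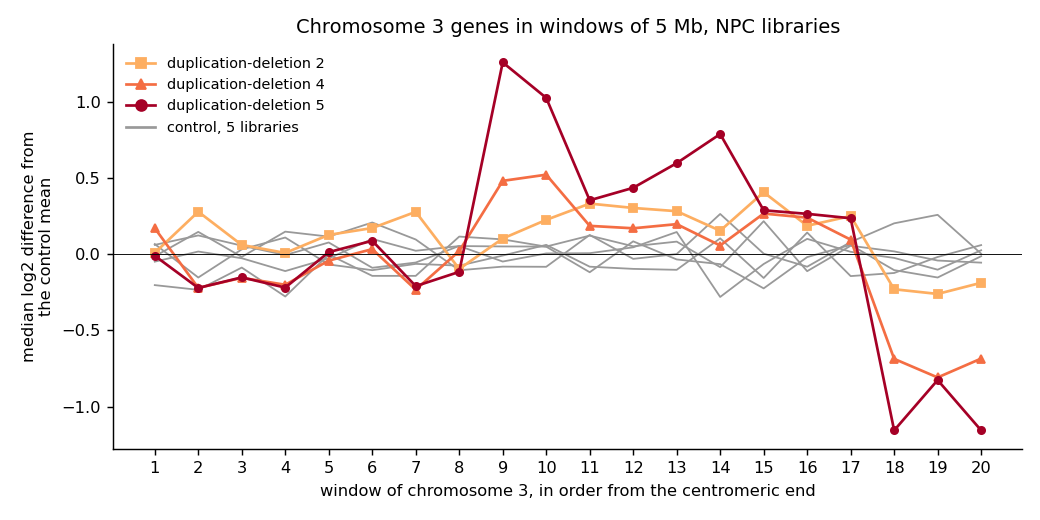
Median log2 difference from the control mean over the genes of each 5 Mb window of chromosome 3 with at least 10 genes (windows in order from the centromeric end), in the 3 duplication-deletion NPC libraries (coloured) and the 5 control NPC libraries (grey lines). Replicate 5 reaches 1.26 on the high side and -1.16 on the low side, replicates 2 and 4 mostly depart less, and the control lines stay near 0.

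The borders of the stretches that follow were set after their values were seen, so they are described without a test. The counts cover genes with a mean log2 CPM of at least 3; of all genes tested, 70 of 70 were positive from 93 to 96 Mb and 63 of 71 negative from 140 to 160 Mb. Between 93 and 96 Mb (mm9), from S100a11 to Sf3b4, 39 of 39 of the expressed genes had a positive log2 fold change, with a median of 1.12. For 11 of them the groups did not overlap, against 1.53% of all genes on the higher side. The choice of the borders favours such counts, and neighbouring genes are not independent here. The median difference was 0.26, 0.65 and 1.91 in replicates 2, 4 and 5, so replicate 5 was the highest and replicate 2 the closest to the controls, which were at -0.08 to 0.10. Golph3l, a Golgi protein, had 78.9, 63.4 and 131 CPM in duplication-deletion libraries, against 40.6, 43.6, 33, 44.9 and 32.5 CPM in control libraries (1.23 ± 0.261, adjusted p = 0.505). Mcl1, which blocks apoptosis, had 236, 221 and 1179 CPM, against 155 to 243 CPM, and here replicate 5 alone was above the controls. Setdb1, a histone H3 lysine methyltransferase that silences repeats and the clustered protocadherins in mouse neurons, had 155, 176 and 262 CPM, against 95.6 to 137 CPM (0.65 ± 0.242), with no overlap. Without replicate 5 the median of this stretch was 0.43, with 36 positive.

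Farther along the chromosome, from 100 to 140 Mb, 121 of 128 expressed genes were positive with a median of 0.32, and the 3 libraries were at 0.28, 0.17 and 0.41. From 140 to 160 Mb, 41 of 42 expressed genes were negative with a median of -0.57. The libraries there were at -0.20, -0.75 and -1.16, again with replicate 5 at the far end, against -0.10 to 0.15 in control libraries. Pkn2, a serine/threonine kinase, had 141, 88.1 and 62.3 CPM in duplication-deletion libraries, against 155 to 190 CPM in control libraries (-0.79 ± 0.239). Below 90 Mb the median over 212 genes was -0.05. Without replicate 5 the medians were 0.24 from 100 to 140 Mb and -0.39 from 140 to 160 Mb, so both directions remained.

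The same stretches were looked at in the other stages. Between 93 and 96 Mb the duplication-deletion ESC libraries were at 0.05, 0.03 and 0.02, against -0.06 to 0.13 in control ESCs. Duplication-deletion neurons were at 0.75 and 0.76, against -0.15 to 0.09 in control neurons. From 140 to 160 Mb duplication-deletion ESCs were at -0.08 to 0.19, against -0.26 to 0.10 in control ESCs, and duplication-deletion neurons at -0.49 and -0.34, against -0.30 to 0.32 in control neurons. Deletion NPCs were at -0.04 to 0.09 in the first of these stretches and -0.26 to 0.13 in the second. Between 93 and 96 Mb the groups were thus separate in NPCs and neurons and overlapped in ESCs, whereas from 140 to 160 Mb the neurons lay just outside the control range, and the differences between stages were not tested.

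Y-linked genes varied within the genotype and were picked after their values were seen. Ddx3y, an RNA helicase, had 16.6, 8.72 and 1.19 CPM in duplication-deletion libraries, against 34.7 to 75.2 CPM in control libraries. Eif2s3y, a translation factor, had 70.5, 30.0 and 3.38 CPM, against 48.6 to 91.5 CPM. Kdm5d, a histone demethylase, had 16.2, 6.69 and 0.285 CPM, 0 in every deletion library and 0 to 1.49 CPM in control libraries. Uty, a further Y-linked gene, had 61.0, 32.4 and 2.57 CPM, against 46.6 to 85.3 CPM in control libraries. The order of the libraries was the same in all 4 genes, but Kdm5d was the one that was higher than in the controls in replicates 2 and 4. The sum of the 4 genes was 171.3 to 222.4 CPM in duplication-deletion ESCs, against 158.6 to 239.3 CPM in control ESCs. In neurons the sum was 65.6 and 53.4 CPM, against 128.7 to 179.8 CPM. These sums were compared without a test.

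Genes of red blood cells were higher in all 3 duplication-deletion libraries; this list, too, was put together after seeing values. The summed level of 9 genes was 130.9, 46.1 and 38.3 CPM in duplication-deletion libraries, 1.97 to 6.11 CPM in deletion libraries and 3.91, 17.5, 11.4, 3.00 and 2.94 CPM in control libraries. Of the 9 genes 9 were positive (median 3.19, or 3.28 without replicate 5). For 4 of them the groups did not overlap, against 1.53% of all genes on the higher side. As the genes were picked on these values, the counts are description only and are given without a test. Hba-x, the embryonic zeta globin, had 58.4, 22.8 and 16.7 CPM, against 0.278 to 6.32 CPM. Hbb-bh1, an embryonic beta-like globin, had 23.6, 8.17 and 4.14 CPM, against 0.141 to 3.57 CPM. Gata1, the erythroid transcription factor, was at 0.759, 0.240 and 0.0952 CPM in duplication-deletion libraries. It was at 0.301 CPM in control replicate 2 and at 0 in the other controls. Gata1 and Klf1 thus overlapped between the groups. Duplication-deletion replicate 2 was the highest in these genes. Their part in other results was not tested.

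The regional identity of the cells had no gene that passed. In the lists from here on, counts at an unadjusted p below 0.05 stand against 1.68% of all genes higher and 0.983% lower. Without replicate 5 these were 303 and 297 of 16782 genes. A count near these shares is not read as a result about the list. Among 16 neural progenitor genes 1 was lower at an unadjusted p below 0.05 and the median log2 fold change was -0.12, or -0.001 without replicate 5. Sox1, the early neuroectoderm factor, had 33.6, 11.6 and 15.7 CPM in duplication-deletion libraries, against 96.1, 41.8, 80.5, 38.3 and 32.2 CPM in control libraries (-1.51 ± 0.459). One duplication-deletion library was within the control range. Sox2 had 90.1, 96.2 and 45.3 CPM, against 69.3 to 115 CPM (-0.32 ± 0.251).

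Of 12 midbrain and isthmus genes tested 11 were negative, with a median of -0.80 and 0 past an unadjusted p of 0.05, or 1 without replicate 5 (median -0.97). Their sum was 34.0 to 56.8 CPM in duplication-deletion, 14.8 to 46.4 CPM in deletion and 48.5 to 101.8 CPM in control libraries. Every deletion library was thus below every control. Set against deletion NPCs the list had a median difference of 0.92, with 8 of 12 genes positive and 4 higher at that p (2.6% of all genes). Wnt1, the signal of the isthmic organiser, had 0.710, 4.47 and 2.95 CPM in duplication-deletion libraries, against 3.08 to 8.35 CPM in control libraries. Pax5 had 1.70, 1.37 and 0.761 CPM, against 1.23 to 4.81 CPM. Of 19 floor plate genes (median 0.18) 1 was higher at that p, Rspo2, a Wnt agonist, with 9.51, 18.0 and 18.9 CPM against 5.01 to 13.6 CPM. Without replicate 5 there were 2 such genes (median 0.57). The dopaminergic list had a median of 0.49, or 0.34 without replicate 5, and 0 of 13 past that p. Nr4a2, which specifies dopaminergic neurons, had 18.6, 118 and 7.14 CPM in duplication-deletion libraries and 6.90 to 58.9 CPM in control libraries, so that replicate 4 of both genotypes was the highest.

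Forebrain factors had a median of -0.26 and 0 of 18 past an unadjusted p of 0.05, or -0.09 and 1 lower without replicate 5, with Emx2 at 3.94 to 4.89 CPM in duplication-deletion and 1.21 to 4.97 CPM in control libraries. Hindbrain and spinal cord genes, near the detection limit, had 1 of 9 lower at that p, Hoxb3, with 0 counts over the 3 duplication-deletion libraries and 37 counts over the 5 controls; without replicate 5 there was none. Of 19 proneural and young neuron genes 2 were higher at that p (median 0.33), against 1.68% of all genes. Without replicate 5 there were 5 (median 0.53), against 303 of 16782 genes. Set against deletion NPCs the list had a median difference of -0.12, with 6 of 19 genes positive. Gap43, a growth cone protein, had 96.1, 109 and 74.2 CPM in duplication-deletion libraries, against 56.6, 54.7, 41.6, 60.7 and 41.1 CPM in control libraries (0.87 ± 0.346, adjusted p = 1.00). Stmn2, a microtubule regulator of axons, had 63.8, 69.1 and 99.8 CPM, against 30.4 to 54.1 CPM (0.93 ± 0.417). Both were above every control. Stmn2 lies on chromosome 3, outside the stretches described.

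Neural crest genes had a median of 0.18, and 1 of 14 was higher at an unadjusted p below 0.05, Sox10, with 4.16, 1.76 and 0.523 CPM in duplication-deletion and 0.238 to 0.864 CPM in control libraries. Of 12 glial genes 2 were higher at that p (median 0.24), as without replicate 5, and in the neural crest list the median was then 0.23. Sparcl1, a matricellular protein of astrocytes, had 24.7, 44.6 and 18.3 CPM in duplication-deletion libraries, against 4.84 to 17.6 CPM in control libraries (1.49 ± 0.478), and Pdgfra, the receptor of oligodendrocyte precursors, had 5.99, 15.5 and 7.99 CPM, against 1.52 to 10.1 CPM. Pluripotency genes had a median of 0.22, or -0.23 without replicate 5, and 0 of 7 past that p. In the mesoderm and endoderm list 1 of 16 was higher, T (brachyury), with 7.71, 66.5 and 7.42 CPM against 3.34 to 15.6 CPM, so that replicate 4 alone was above the controls; the median of that list was -0.02, or -1.03 without replicate 5.

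All 20 DNA replication genes had a negative log2 fold change, with a median of -0.28 and 0 past an unadjusted p of 0.05. Mcm10 had 48.4, 40.4 and 26.2 CPM in duplication-deletion libraries, against 44.0 to 67.8 CPM in control libraries (-0.42 ± 0.252), and Rrm1, the large subunit of ribonucleotide reductase, had 263, 187 and 170 CPM, against 214 to 284 CPM. Replicate 2 was at the control level in both genes, and without replicate 5 the median of the list was -0.14. Mitosis genes had a median of -0.09, or 0.04 without replicate 5, and 0 of 20 past that p.

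Signalling lists had no gene past an unadjusted p of 0.05 with all libraries. Wnt targets had a median of -0.33, Hedgehog targets -0.43, MAPK feedback genes -0.11 and Notch and BMP genes 0.14, with 0 of 16, 11, 14 and 19 past an unadjusted p of 0.05. Without replicate 5 the medians were -0.51 for Wnt, -0.83 for Hedgehog, -0.64 for MAPK feedback and -0.22 for Notch and BMP genes, and 1 Wnt, 1 Hedgehog and 1 Notch or BMP gene were lower at that p. Etv4, a transcription factor downstream of FGF, had 4.61, 4.90 and 5.42 CPM in duplication-deletion libraries, against 6.07 to 20.9 CPM in control libraries. Jag1, a Notch ligand, had 36.5, 38.5 and 37.6 CPM, against 38.5 to 61.8 CPM. For Etv4 and Jag1 the groups did not overlap, by a margin smaller than the printed digits in Jag1.

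Metabolic and stress lists had 0 members past an unadjusted p of 0.05 with all libraries. The median was -0.32 for 21 glycolysis and hypoxia genes, -0.14 for 20 cholesterol synthesis genes, -0.16 for 18 interferon genes, 0.05 for 17 p53 targets and 0.02 for 20 stress genes. Pmaip1, an apoptosis gene induced by p53, had 1.58, 0.185 and 26.3 CPM in duplication-deletion libraries and 0 to 2.88 CPM in control libraries, with replicate 5 alone above the controls. Bbc3, a further apoptosis gene of that list, had 2.94, 5.77 and 22.8 CPM, against 3.84 to 8.31 CPM. Without replicate 5 the median of the p53 list was -0.65, that of the interferon list -0.46 and that of the stress list -0.11, and 3 glycolysis and hypoxia genes and 1 interferon gene were lower at an unadjusted p below 0.05.

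Collagens and laminins had 1 of 21 higher and 2 lower at an unadjusted p below 0.05, with a median of -0.07, or -0.47 and 15 of 21 negative without replicate 5. Col5a2, a fibrillar collagen chain, had 44.3, 15.8 and 7.28 CPM in duplication-deletion libraries, 0.822 to 4.48 CPM in deletion libraries and 74.7 to 210 CPM in control libraries (-2.63 ± 0.693, adjusted p = 0.834). Adhesion and guidance lists held few such genes. Neurexins, neuroligins and contactins had 1 of 19 higher (median 0.34), Cntnap4, at 0.677, 0.850 and 0.0476 CPM in duplication-deletion libraries. The highest control library had 0.153 CPM of Cntnap4 and the others had 0, so the groups overlapped. Axon guidance genes had 0 of 27 past that p (median 0.10) and autism-linked chromatin regulators 0 of 19 (median -0.08). Without replicate 5 there were 2 adhesion genes higher (median 0.56), 2 guidance genes higher and 1 lower (median 0.17), and the chromatin regulators had a median of 0.04. Pogz, one of these regulators, lies in the raised stretch of chromosome 3 and had 48.5, 103 and 91.3 CPM, against 35.6 to 79 CPM.

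Outside the lists the genes of smallest p with separate groups included Zfp951, a zinc finger gene, with 1.80, 1.15 and 0.0952 CPM in duplication-deletion libraries, against 14.8, 9, 9.48, 8.41 and 10.9 CPM in control libraries (log2 fold change -3.32 ± 0.647, adjusted p = 0.392). Deletion libraries lay between, at 2.50 to 5.64 CPM. Rnf17, a germ cell protein of the piRNA pathway, had 3.07, 0.721 and 0.190 CPM, against 10.4 to 18.4 CPM (-3.34 ± 0.747, adjusted p = 0.534). Here the deletion libraries, at 0.143 to 0.665 CPM, were as low as the duplication-deletion ones.

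To see which differences were already present before differentiation, the effect of the genotype in NPCs was set against that in ESCs (3 duplication-deletion, 3 control) and in day 16 neurons (2 and 4 libraries) in a joint fit of 19996 genes. The effect differed between NPCs and ESCs for 1 gene (0.005%), Zim1, with a log2 difference of effects of 4.49 ± 0.617 (edgeR, adjusted p = 0.00306). In ESCs Zim1 had 1.21 to 2.17 CPM in duplication-deletion libraries and 0.903 to 1.48 CPM in control libraries. In neurons it had 27.6 and 46.6 CPM in duplication-deletion and 4.25, 4.11, 2.99 and 2.03 CPM in control libraries. The groups thus overlapped in ESCs and were separate in NPCs and neurons.

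**Figure D5:**
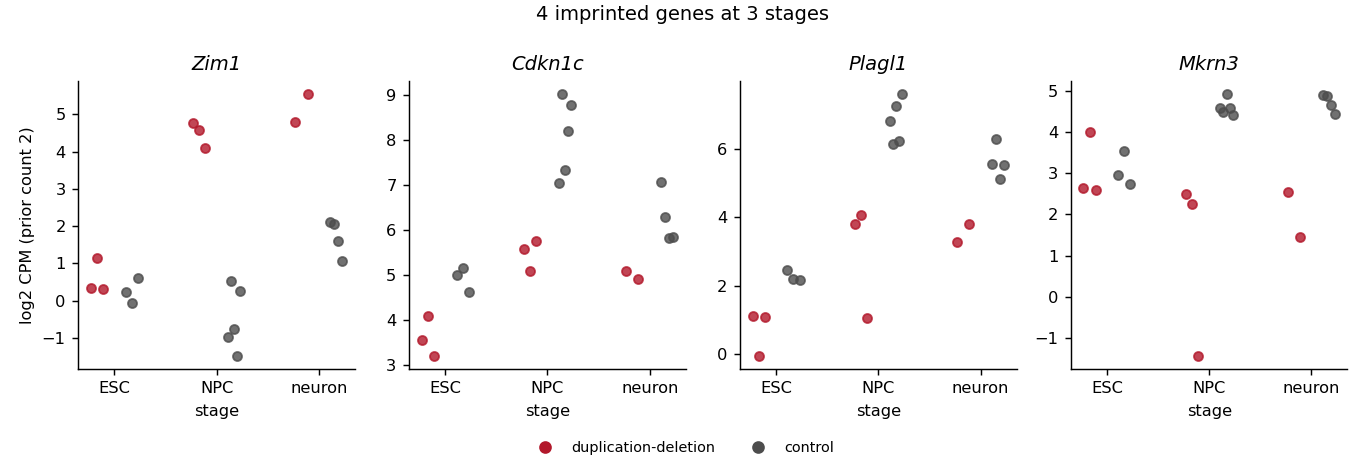
Zim1, Cdkn1c, Plagl1 and Mkrn3 as log2 CPM with a prior count of 2 in ESCs, NPCs and neurons, with duplication-deletion libraries in red (left) and control libraries in grey (right); 1 point is 1 library, all 3 stages scaled together. Zim1 separates from NPCs on, and Cdkn1c and Plagl1 are below the controls at every stage, from 12.7 against 30.8 CPM and from 1.70 against 4.81 CPM on average in ESCs.

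Other imprinted genes were low in duplication-deletion ESCs already. The summed level of the Snrpn domain was 40.1, 50.2 and 43.6 CPM in duplication-deletion ESCs and 247.5, 205.2 and 99.5 CPM in control ESCs. In neurons it was 77.1 and 53.5 CPM, against 711.3, 514.0, 625.8 and 463.9 CPM. Cdkn1c had 11.8, 17.2 and 9.26 CPM in duplication-deletion ESCs, against 32.0, 35.9 and 24.6 CPM in control ESCs, and Plagl1 had 2.13, 0.923 and 2.05 CPM, against 5.50, 4.49 and 4.43 CPM. Mkrn3, in contrast, overlapped in ESCs, with 6.24, 15.9 and 5.96 CPM against 7.75, 11.7 and 6.60 CPM, and was separate in neurons, with 5.79 and 2.69 CPM against 21.4 to 29.7 CPM. Its difference between stages did not pass (-2.87 ± 0.723, adjusted p = 0.847).

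Pcdhb genes were close to silent in ESCs, with sums of 0.872, 1.44 and 1.33 CPM in duplication-deletion and 0.521 to 1.5 CPM in control libraries. In neurons the sums were 408.3 and 402.2 CPM in duplication-deletion libraries, against 315.0, 265.0, 224.1 and 160.3 CPM in control libraries, which puts both above all controls. The Pcdha sums in neurons were 80.8 and 61.8 CPM, against 55.4 to 125.2 CPM, and overlapped, while in NPCs they were 22.1, 41.0 and 68.4 CPM, against 7.75 to 13.1 CPM. Between NPCs and neurons 0 genes differed in the effect of the genotype with edgeR (0% of 19996; 1004 at an unadjusted p below 0.05; 0 with limma-voom), so that the larger log2 fold changes of single protocadherins in NPCs, such as Pcdhb22 with a difference of effects of 1.64 ± 0.646, are not shown to be particular to this stage.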

How the data were processed

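Total RNA was sequenced as paired reads of stranded libraries, per the labels' protocols. The deposited values are expected counts per gene, rounded to whole numbers here. The submitters' processing notes name the aligner STAR (2.6.0c), the quantifier RSEM (1.3.0), DESeq2 (1.22.2) and the build mm9. The authors' deposited table of comparisons gives log2 fold changes, adjusted p-values and mm9 positions, which were used to describe calls and place genes. Hi-C data were not analysed here.

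The 11 NPC libraries were fitted together in edgeR 4.0.16 (R 4.3.3; TMM scaling, filterByExpr, robust quasi-likelihood fit, no block), with 28 libraries for differences between stages. The standard error is the log2 fold change divided by the root of the F statistic, and CPM uses TMM-scaled library sizes. The script was tested on simulated counts. All interval genes were counted and 8 fixed ones described by value; others were named from calls with a mean of at least 2 CPM and separate groups, filled to 6 a direction with the smallest p among genes of at least 5 CPM, and from each list the 2 members of smallest p. Further genes were named after their values were seen, mainly imprinted, Snrpn domain, Y-linked, globin and chromosome 3 genes and marker genes.

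The members and the gene lists were chosen with earlier results of these data known. Gm166 was removed from the interval list because its deposited position lies beyond Sept1. Window medians use 8802 genes with a mean log2 CPM of at least 3. Promoter windows are from RefSeq. Alternatives were RLE scaling, no filter, a replicate block, a term for replicate 5, single libraries or the shallow replicate 5 libraries left out, the 2 groups alone, DESeq2 1.42.0 and limma-voom (limma 3.58.1). Intervals cover counting error only.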

Additional observations from a re-analysis of the deposited data

Results flagged for a closer look

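The effect of the duplication-deletion genotype on Zim1 differed between stages, by 4.49 on the log2 scale in NPCs minus ESCs (edgeR, adjusted p = 0.00306), with the values of all libraries given above.

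Single control NPC libraries lay far from the other 4 in 6 of the 83 named genes, by the gap to the nearest library relative to the range of the group. Chance alone gives about 1 in 20 such gaps where values are normally spread. CPM values can be skewed and some of these genes lie near 0, so the gaps do not show that a library is unusual. The library in question was the highest of its group each time. Etv4 had 20.9 CPM in control replicate 3, against 6.07 to 8.76 CPM in the other controls. Nr4a2 had 58.9 CPM in control replicate 4, against 6.90 to 16.3 CPM. Rspo2 had 13.6 CPM in control replicate 5, against 5.01 to 7.31 CPM. Pmaip1 had 2.88 CPM in control replicate 2, against 0 to 0.0397 CPM. Near the detection limit, Hoxc4 had 0.438 CPM in control replicate 1, against 0 to 0.0682 CPM, and Cntnap4 had 0.153 CPM in control replicate 3, against 0 in the others.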

How the results depend on the processing

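Zim1 was called in duplication-deletion minus control NPCs under every alternative run, with log2 fold changes of 4.69 to 5.24, while Airn was called under the main setting, no filter, DESeq2, a term for replicate 5 and without control replicate 3, and missed the threshold in the other alternatives. The count of 2 genes became 1 with RLE scaling, limma-voom or the 2 groups alone, 49 with DESeq2, 4 without both replicate 5 libraries (an alternative chosen after seeing the data) and 1 to 3 with single libraries left out. The count of 4 against deletion NPCs became 101 with DESeq2, 1 with limma-voom or the 2 groups alone, 8 with a term for replicate 5 and 0 to 8 with single libraries left out. For the NPC minus ESC effect the count of 1 became 5 with limma-voom and 1 to 2 with single libraries left out; for the NPC minus neuron effect the count of 0 stayed 0 in these. The cause of these shifts was not tested.

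With the replicate number as a block the counts were 2 against control, 2 against deletion, 0 for NPC minus ESC and 1 for NPC minus neuron. Deviations of libraries with the same number correlated at 0.069 (replicate 2), 0.42 (4) and 0.48 (5) between duplication-deletion and control NPCs. Between deletion and control NPCs they correlated at 0.18 (replicate 1), -0.03 (3) and 0.39 (5). Deletion and duplication-deletion replicates 5 correlated at 0.47. Libraries numbered 4 and 5 thus shared part of their deviation, while duplication-deletion replicate 2 correlated best with control replicate 1. The main fit takes no account of this shared part, and the counts with a block are those given above. Among results on named genes, 1559 values kept direction and side of the threshold, 57 moved, 18 became and 16 ceased to be called; list medians stayed within their spread 695 times and moved 45 times. Replicate 5 has the lowest depth, which limits genes of low level.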
